A study of Mus musculus with 15 samples.

Results

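The mouse cell cycle genes described here are 38 genes of cell division, taken by symbol from a count table of 24060 gene entries measured in pancreatic islets of 5 groups of mice. They are 7 G1 cyclins, kinases and E2F (Ccnd1, Ccnd2, Cdk4, Ccne1, Ccne2, Cdk2, E2f1), 8 DNA replication genes (Mcm2, Mcm3, Mcm4, Mcm5, Mcm6, Pcna, Rrm2, Tyms) and 23 genes of mitosis. The mitotic genes are 8 of mitotic entry (Ccna2, Ccnb1, Ccnb2, Cdk1, Plk1, Aurka, Aurkb, Foxm1), 5 of the spindle checkpoint and anaphase-promoting complex (Bub1, Bub1b, Cdc20, Ube2c, Birc5) and 10 of kinetochore, spindle and chromosome structure (Cenpa, Cenpe, Cenpf, Kif11, Kif20a, Nusap1, Tpx2, Prc1, Top2a, Mki67). The genes were chosen with earlier results of these data known. All 38 were among the 15460 entries that passed the filter on low counts and were tested.

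Islets are clusters of endocrine cells in the pancreas, mostly insulin-secreting beta cells, and here they were analysed in bulk. The study compared FVB/NJ mice that carried a human IAPP transgene (hIAPP), a rodent IAPP transgene (rIAPP), a human CAST transgene (hCAST), the human IAPP and human CAST transgenes together (hIAPP_hCAST), or no transgene (WT). All were 9 to 10 weeks old, with 3 libraries per group and 15 in all. Islet amyloid polypeptide (IAPP) is a beta-cell hormone whose human form can aggregate and whose rodent form does not, and CAST encodes calpastatin, an inhibitor of calpain proteases. Each IAPP transgene, and CAST in the hCAST mice, was driven by the insulin II promoter, and CAST in the double transgenic mice by an insulin promoter. The transgenes are thus aimed at beta cells, whereas the RNA came from every cell type of the islet preparation. The labels do not say whether a library came from 1 mouse or from pooled mice, so p-values measure the spread between these libraries.

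A cell passes from G1, where D and E cyclins with their kinases release E2F, through S phase, where the MCM helicase and the PCNA clamp copy the DNA, into mitosis, where cyclin B with Cdk1 acts. Transcripts of mitosis genes peak in G2 and M and are repressed in resting cells by the DREAM complex, which binds the CHR element of their promoters, whereas many replication genes are controlled through E2F. Adult beta cells divide rarely, and Ccnd2 is the D cyclin on which their expansion in mice is known to depend.

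Total counts ran from 28287011 to 40191501 per library. In WT 2, WT 3 and rIAPP 2, 94.3%, 68.9% and 67.7% of the counts were on entries rich in ribosomal RNA (Rn45s, Lars2, Mir6236), which left 1667190, 8796210 and 9510502 other counts against 30199765 to 40062153 elsewhere. Levels are CPM, read counts scaled by the effective library size that TMM normalisation gives, and 1 read is worth 0.44 CPM in WT 2, 0.077 in WT 3, 0.074 in rIAPP 2 and 0.016 to 0.022 in the other libraries. The cell cycle genes were detected in every library except that Aurkb, Bub1 and Cenpa had 0 counts in WT 2, where a count of 0 allows up to 1.31 CPM (3 counts). Such limits cover counting error only. Defining beta-cell markers were present throughout, with summed levels of 38700 to 50300 CPM for 8 markers in rIAPP and 68500 to 124000 in the other groups. A gene is called higher or lower where edgeR's quasi-likelihood test gave a Benjamini-Hochberg adjusted p below 0.05 over all tested genes, and differences are log2 fold changes ± SE.

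The genes differed widely in level. Per kilobase of gene length, the mean over all libraries was 103 CPM for Ccnd2, 52.9 for Cdk4, 16.7 for Ccnd1 and 14.1 for Pcna. The 23 mitotic genes lay between 0.105 CPM per kilobase for Bub1 and 1.26 for Top2a, which is between percentile 4.53 and percentile 27.6 of the tested genes, whereas Ccnd2 lay at percentile 98.4. Their precision is correspondingly low: all reads of Aurkb over the 15 libraries numbered 216, those of Birc5 315 and those of Bub1 343, against 380686 for Ccnd2. Summed over the 23 mitotic genes, the level was 22.7, 23.2 and 25.1 CPM in rIAPP 1, 2 and 3. It was 40.6, 67.4 and 40.1 in WT, 41.6, 56.7 and 70.9 in hCAST, 62.3, 54.1 and 62.8 in hIAPP, and 70.5, 41.8 and 45.1 in hIAPP_hCAST. Every library of the other 4 groups thus lay above the rIAPP libraries, and those 4 groups overlapped one another. In bulk RNA, fewer cells of a type and less RNA per cell cannot be told apart.

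**Figure D1:**
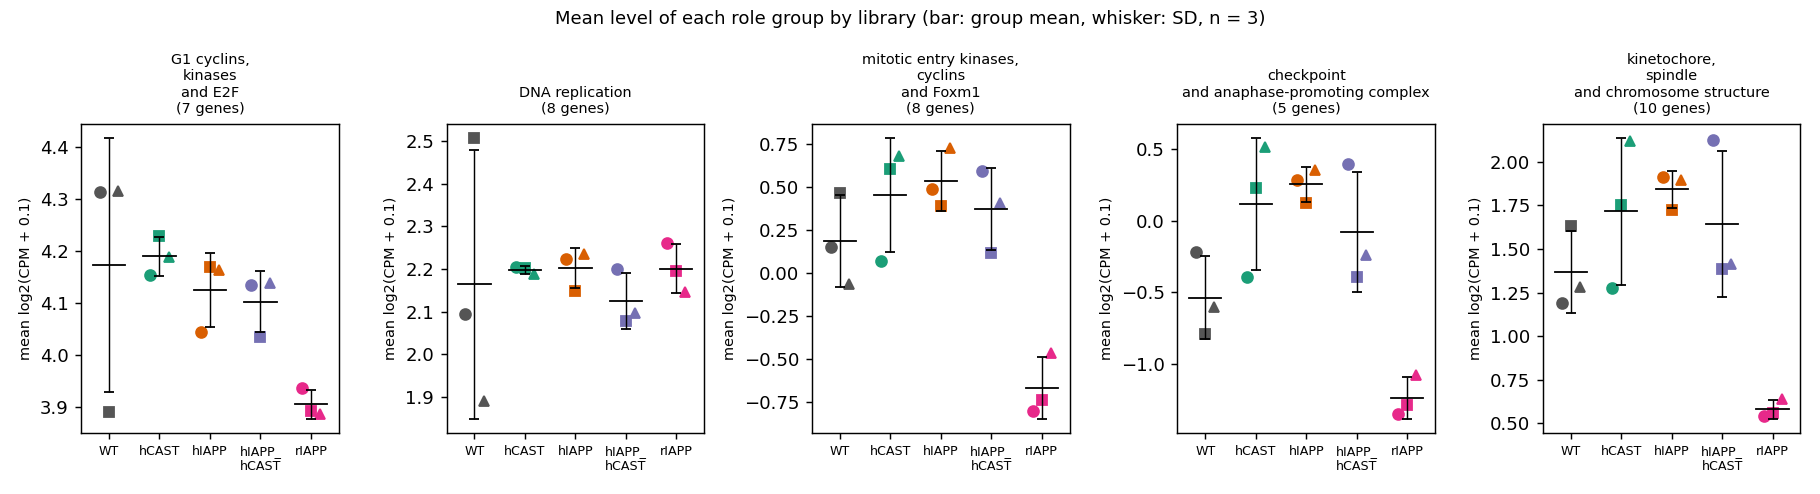
Mean log2(CPM + 0.1) over the genes of each role group (one panel each, with its own vertical range), for every library; circles, squares and triangles are libraries 1, 2 and 3, bars are group means and whiskers SD (n = 3). In the 3 mitotic panels the rIAPP libraries lie below those of every other group, and in the DNA replication panel they lie within the range of the others.

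The comparison of hIAPP with rIAPP sets the human transgene against the rodent one. Of the 38 genes, 22 were higher and 1 was lower in hIAPP, beside 7.71% of all tested genes called higher and 5.28% called lower. The median log2 fold change was 1.01 over the 38 genes and 0.01 over all tested genes. The calls fell by role: 20 of the 23 mitotic genes were higher (median 1.6), against 2 of the 15 G1 and replication genes (median 0.16), of which 1 was lower. The rIAPP libraries also serve as the reference in 2 further comparisons, so the 3 sets of values are not independent. In hIAPP_hCAST against rIAPP, 18 genes were higher and 1 lower (median 0.88), beside 9.98% and 8.21% of all tested genes, and 17 of the 18 were mitotic. In hCAST against rIAPP, 21 genes were higher and 1 lower (median 0.94), beside 11.8% and 10.6%, and 19 of the 21 were mitotic. Leaving out rIAPP 1, after which a shallow library makes up 1 of the 2 left, lowered the number of called genes from 23 to 14 in hIAPP, and from 19 to 11 in hIAPP_hCAST. Without hIAPP_hCAST 1 the latter was 12.

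**Figure D2:**
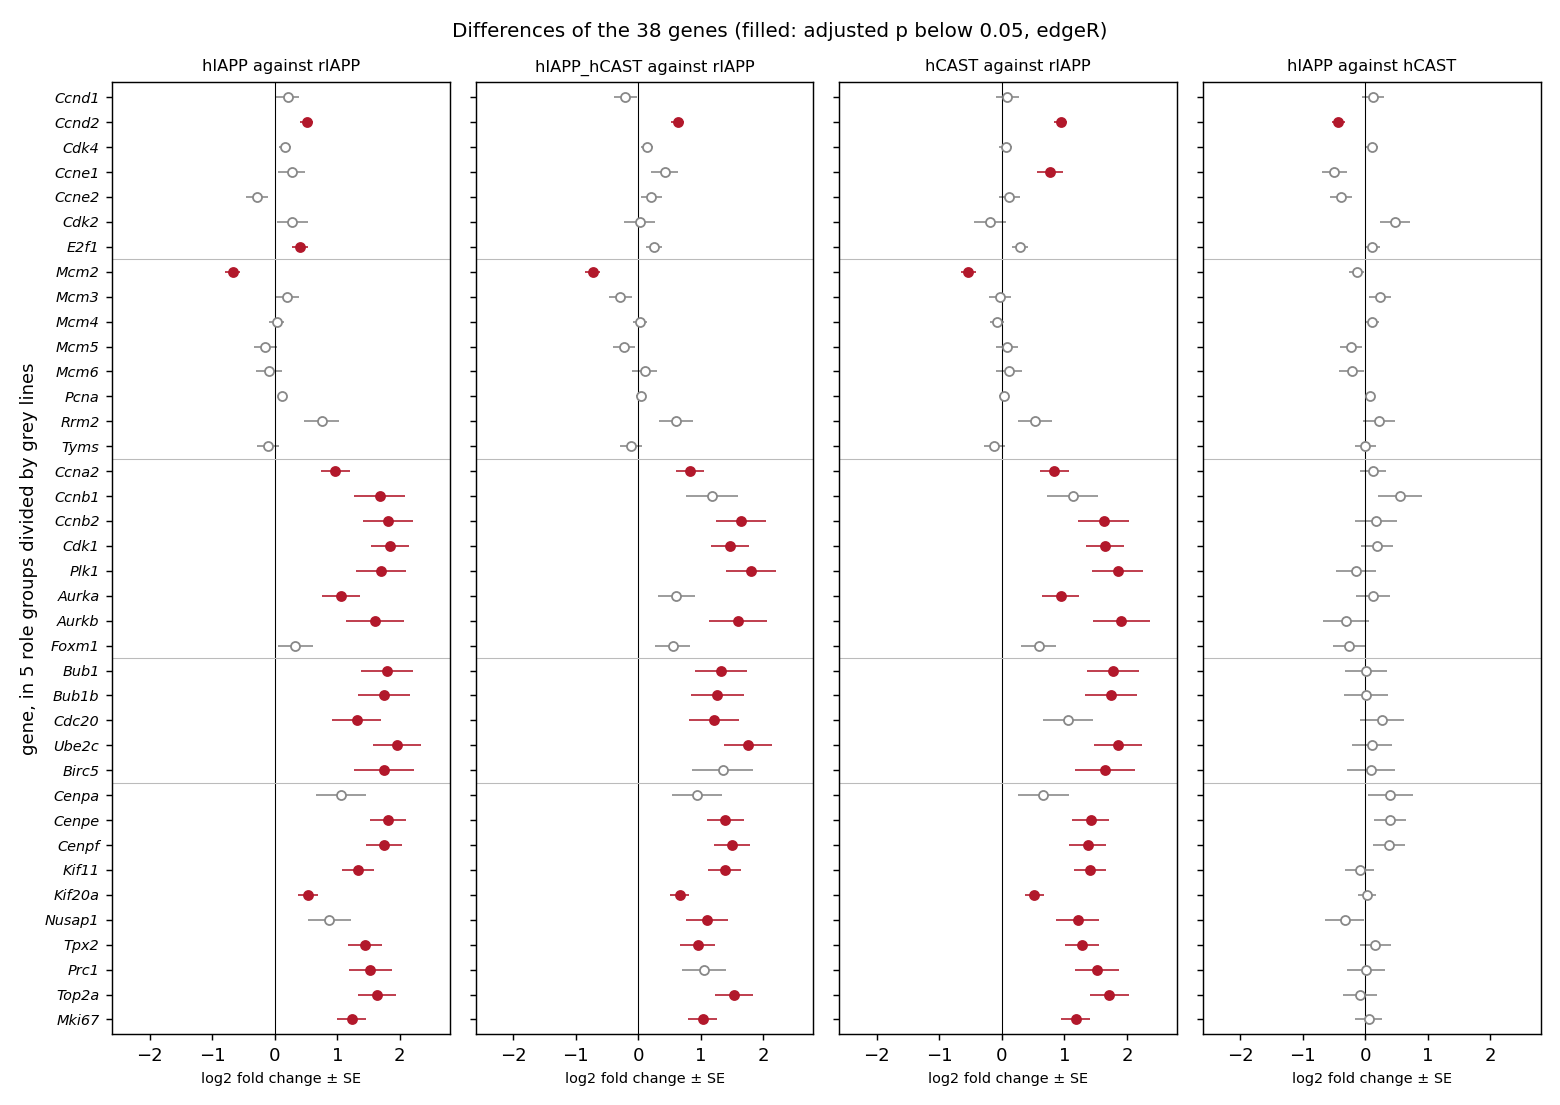
Log2 fold change ± SE of each of the 38 genes in 4 comparisons (columns), with genes in rows by role group, filled red where edgeR's adjusted p was below 0.05. The 3 comparisons with rIAPP share its libraries, and in each the 23 mitotic genes, in the lower 3 blocks, all lie to the right of zero; against hCAST, hIAPP differed in Ccnd2 only.

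Of the 8 genes of mitotic entry, 7 were higher in hIAPP than in rIAPP. Cdk1, the kinase that drives entry into mitosis, had 1.42, 0.876 and 0.925 CPM in WT, 1, 2.1 and 1.81 in hCAST, 1.85, 1.64 and 2.11 in hIAPP, 1.61, 1.59 and 1.14 in hIAPP_hCAST, and 0.587, 0.518 and 0.446 in rIAPP. All rIAPP libraries lay below all others, although WT 2 held only 2 counts. The log2 fold change was 1.84 ± 0.299 (adjusted p = 0.000426) in hIAPP, 1.47 ± 0.301 (adjusted p = 0.00244) in hIAPP_hCAST and 1.65 ± 0.3 (adjusted p = 0.000706) in hCAST. Ccnb2, a B cyclin that activates Cdk1, had 1.03, 2.19 and 0.848 CPM in WT, 0.74, 1.19 and 1.98 in hCAST, 1.45, 1.49 and 1.48 in hIAPP, 1.84, 0.832 and 1.26 in hIAPP_hCAST, and 0.322, 0.296 and 0.58 in rIAPP. Its rIAPP libraries were again the lowest of all. The differences were 1.81 ± 0.404 (adjusted p = 0.00572) in hIAPP, 1.64 ± 0.404 (adjusted p = 0.00877) in hIAPP_hCAST and 1.63 ± 0.405 (adjusted p = 0.00779) in hCAST. Ccnb1, the other B cyclin, had 0.817, 3.5 and 0.771 CPM in WT, 0.64, 1.12 and 1.58 in hCAST, 1.79, 1.12 and 1.98 in hIAPP, 1.36, 1.06 and 1.04 in hIAPP_hCAST, and 0.436, 0.518 and 0.58 in rIAPP. WT 2, at 7 counts, was its highest library, and the rIAPP libraries were the lowest. Ccnb1 passed in hIAPP, at 1.68 ± 0.407 (adjusted p = 0.00999), and stood at 1.18 ± 0.411 (adjusted p = 0.0559) in hIAPP_hCAST and 1.13 ± 0.413 (adjusted p = 0.0596) in hCAST.

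Ccna2, the cyclin of S phase and G2, had 1.94, 2.63 and 2.16 CPM in WT, 2.38, 2.47 and 2.85 in hCAST, 2.91, 2.37 and 3.11 in hIAPP, 3.09, 1.72 and 2.8 in hIAPP_hCAST, and 1.23, 1.26 and 1.74 in rIAPP. The rIAPP libraries lay below those of hIAPP, hCAST and WT, and overlapped hIAPP_hCAST by 1 library. The difference was 0.97 ± 0.226 (adjusted p = 0.00797) in hIAPP. Plk1, the polo-like kinase of centrosomes and kinetochores, had 0.473, 0.876 and 0.463 CPM in WT, 0.48, 1.06 and 0.742 in hCAST, 0.472, 0.646 and 0.943 in hIAPP, 0.682, 0.658 and 0.857 in hIAPP_hCAST, and 0.152, 0.222 and 0.268 in rIAPP. No other library reached down to the rIAPP levels, although WT 2 held only 2 counts. Plk1 differed by 1.7 ± 0.404 (adjusted p = 0.00876) in hIAPP, 1.8 ± 0.401 (adjusted p = 0.00444) in hIAPP_hCAST and 1.85 ± 0.401 (adjusted p = 0.00298) in hCAST. Aurka, the Aurora kinase of spindle poles, had 2.19, 2.19 and 1.39 CPM in WT, 1.62, 2.6 and 2.57 in hCAST, 2.51, 2.11 and 2.74 in hIAPP, 2.04, 1.28 and 2.04 in hIAPP_hCAST, and 1.31, 0.444 and 1.45 in rIAPP. The rIAPP libraries were spread from the lowest of all into the range of WT and hIAPP_hCAST. Its difference was 1.06 ± 0.299 (adjusted p = 0.0254) in hIAPP, 0.61 ± 0.301 (adjusted p = 0.187) in hIAPP_hCAST and 0.94 ± 0.3 (adjusted p = 0.0318) in hCAST. Aurkb, the Aurora kinase of the chromosomal passenger complex, had 0.237, 0 and 0.154 CPM in WT, 0.44, 0.549 and 0.381 in hCAST, 0.283, 0.474 and 0.351 in hIAPP, 0.454, 0.29 and 0.358 in hIAPP_hCAST, and 0.0568, 0.148 and 0.179 in rIAPP. WT 2 had 0 counts, which leaves its level unknown up to the limit given above. WT 3 lay within the rIAPP range, and WT 1 above it. Aurkb differed from rIAPP by 1.6 ± 0.466 (adjusted p = 0.0304) in hIAPP, 1.6 ± 0.463 (adjusted p = 0.0228) in hIAPP_hCAST and 1.91 ± 0.456 (adjusted p = 0.00591) in hCAST. In hIAPP the Aurka call was kept in 6 of 11 alternative settings and lost without hIAPP 1, hIAPP 3, rIAPP 1 or rIAPP 2. In hCAST it was also kept in 6 of 11, and lost without rIAPP 1, rIAPP 2, hCAST 2 or hCAST 3. The Aurkb call in hIAPP was kept in 5 of 11, and lost with DESeq2 and without hIAPP 2, hIAPP 3, rIAPP 1 or rIAPP 2. In hIAPP_hCAST that of Aurkb was kept in 6 of 11, and lost with DESeq2, with only the groups compared, and without rIAPP 1 or hIAPP_hCAST 1. Each of these Aurka and Aurkb calls was also lost without WT 2, WT 3 and rIAPP 2 together. Foxm1, the transcription factor that activates many mitosis genes, passed in none of these comparisons, at 0.33 ± 0.285 (adjusted p = 0.541) in hIAPP, 0.55 ± 0.282 (adjusted p = 0.206) in hIAPP_hCAST and 0.59 ± 0.282 (adjusted p = 0.148) in hCAST, and its groups overlapped.

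All 5 genes of the spindle checkpoint and the anaphase-promoting complex were higher in hIAPP than in rIAPP, with log2 fold changes from 1.31 to 1.96. Ube2c, the ubiquitin-conjugating enzyme that feeds the anaphase-promoting complex, had 1.03, 0.438 and 0.694 CPM in WT, 0.76, 1.43 and 2.06 in hCAST, 1.34, 1.72 and 1.52 in hIAPP, 1.74, 1.26 and 0.981 in hIAPP_hCAST, and 0.436, 0.148 and 0.446 in rIAPP. The rIAPP libraries lay below all hIAPP, hIAPP_hCAST and hCAST libraries, and overlapped WT through WT 2, where 1 read was counted. Ube2c had the highest fold change of the 38 genes in hIAPP, 1.96 ± 0.384 (adjusted p = 0.00204). Bub1, a checkpoint kinase at kinetochores, had 0.538, 0 and 0.308 CPM in WT, 0.42, 0.695 and 0.895 in hCAST, 0.661, 0.56 and 0.795 in hIAPP, 0.549, 0.445 and 0.467 in hIAPP_hCAST, and 0.189, 0.074 and 0.246 in rIAPP. WT 1 and WT 3 lay above the rIAPP libraries, and WT 2 had 0 counts. The other 3 groups stood above rIAPP, by 1.79 ± 0.413 (adjusted p = 0.00729) in hIAPP, 1.32 ± 0.421 (adjusted p = 0.038) in hIAPP_hCAST and 1.78 ± 0.412 (adjusted p = 0.00484) in hCAST. The Bub1 call in hIAPP_hCAST was kept in 2 of 11 settings, and lost with DESeq2, with only the groups compared, and without any single library of either group. Leaving out WT 2, WT 3 and rIAPP 2 together also lost it. Bub1b, which encodes the checkpoint protein BubR1, had 0.731, 0.438 and 1 CPM in WT, 1.08, 1.28 and 1.24 in hCAST, 1.45, 0.905 and 1.26 in hIAPP, 1.51, 0.406 and 0.654 in hIAPP_hCAST, and 0.36, 0.444 and 0.313 in rIAPP. In hIAPP_hCAST it split, with 1 library among the highest and 1 inside the rIAPP range. Its difference from rIAPP was 1.75 ± 0.416 (adjusted p = 0.0087) in hIAPP and 1.26 ± 0.422 (adjusted p = 0.0478) in hIAPP_hCAST, where the call was kept in 5 of 11 settings and lost without hIAPP_hCAST 1 or any single rIAPP library. That Bub1b call was also lost with only the groups compared, and without WT 2, WT 3 and rIAPP 2 together.

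Cdc20, the activator that the checkpoint restrains, had 1.42, 2.19 and 0.617 CPM in WT, 1.12, 1.37 and 2.61 in hCAST, 2, 1.59 and 2.5 in hIAPP, 2.58, 1.41 and 1.7 in hIAPP_hCAST, and 0.644, 1.41 and 0.692 in rIAPP. Its rIAPP libraries were not uniform, since rIAPP 2 was above rIAPP 1 and 3 and above some libraries of other groups, and the differences were 1.31 ± 0.396 (adjusted p = 0.0374) in hIAPP, 1.21 ± 0.396 (adjusted p = 0.044) in hIAPP_hCAST and 1.06 ± 0.399 (adjusted p = 0.0689) in hCAST. Birc5, which encodes survivin of the passenger complex, had 0.409, 0.876 and 0.386 CPM in WT, 0.3, 0.787 and 0.666 in hCAST, 0.661, 0.646 and 0.573 in hIAPP, 0.663, 0.348 and 0.421 in hIAPP_hCAST, and 0.0758, 0.222 and 0.29 in rIAPP. All rIAPP libraries were below all others, although WT 2 held only 2 counts. The differences were 1.75 ± 0.481 (adjusted p = 0.0219) in hIAPP, 1.35 ± 0.488 (adjusted p = 0.0656) in hIAPP_hCAST and 1.65 ± 0.482 (adjusted p = 0.0204) in hCAST. In hIAPP the Birc5 call was kept in 6 of 11 settings and lost without hIAPP 1, hIAPP 2, rIAPP 1 or rIAPP 2. Leaving out WT 2, WT 3 and rIAPP 2 together also lost it.

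Of the 10 genes of kinetochore, spindle and chromosome structure, 8 were higher in hIAPP than in rIAPP. Mki67, which encodes the proliferation marker Ki-67, had 6.52, 10.9 and 6.55 CPM in WT, 6.78, 8 and 9.93 in hCAST, 9.9, 7.04 and 8.58 in hIAPP, 10.6, 5.69 and 6.08 in hIAPP_hCAST, and 3.71, 3.4 and 3.71 in rIAPP. The rIAPP libraries, with a mean of 3.61 ± 0.176 CPM (SD, n = 3), lay below every other library, and the means of the other groups ran from 7.46 to 8.51 CPM. The differences of Mki67 from rIAPP were 1.23 ± 0.235 (adjusted p = 0.0021) in hIAPP, 1.03 ± 0.235 (adjusted p = 0.00584) in hIAPP_hCAST and 1.18 ± 0.235 (adjusted p = 0.00192) in hCAST. Top2a, the topoisomerase that untangles sister chromatids, had 5.4, 10.5 and 5.55 CPM in WT, 5.68, 8.64 and 10.4 in hCAST, 7.59, 8.18 and 7.44 in hIAPP, 11, 5.15 and 5.48 in hIAPP_hCAST, and 2.44, 2.15 and 2.75 in rIAPP. It showed the same separation of the rIAPP libraries from the rest, with differences of 1.63 ± 0.307 (adjusted p = 0.00233) in hIAPP, 1.53 ± 0.306 (adjusted p = 0.00299) in hIAPP_hCAST and 1.72 ± 0.306 (adjusted p = 0.00102) in hCAST.

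Cenpe, a kinesin that moves chromosomes to the spindle equator, had 1.05, 2.19 and 1.23 CPM in WT, 1.7, 2.2 and 3.62 in hCAST, 3.46, 2.97 and 3.4 in hIAPP, 3.2, 1.8 and 2.34 in hIAPP_hCAST, and 1.08, 0.666 and 0.915 in rIAPP. The hIAPP libraries were high and uniform, and the rIAPP libraries overlapped those of WT only. The difference was 1.81 ± 0.294 (adjusted p = 0.000418) in hIAPP, 1.39 ± 0.295 (adjusted p = 0.00316) in hIAPP_hCAST and 1.42 ± 0.295 (adjusted p = 0.00218) in hCAST. Cenpf, a kinetochore protein, had 2.84, 6.13 and 3.62 CPM in WT, 2.84, 4.21 and 5.37 in hCAST, 5.65, 4.8 and 5.66 in hIAPP, 6.49, 3.91 and 3.26 in hIAPP_hCAST, and 1.38, 1.7 and 1.79 in rIAPP, with the rIAPP libraries lowest and a difference of 1.74 ± 0.289 (adjusted p = 0.000618) in hIAPP. Cenpa, the histone H3 variant of centromeres, did not pass, at 1.06 ± 0.402 (adjusted p = 0.104) in hIAPP, although its hIAPP libraries (1.21 to 1.42 CPM) lay above the rIAPP libraries (0.446 to 0.740 CPM).

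Kif11, the kinesin that pushes spindle poles apart, had 1.78, 2.19 and 2 CPM in WT, 1.86, 2.69 and 2.74 in hCAST, 2.46, 2.07 and 2.35 in hIAPP, 3.41, 1.7 and 2.04 in hIAPP_hCAST, and 0.852, 0.814 and 1.03 in rIAPP. The rIAPP libraries were lowest, with a difference of 1.33 ± 0.26 (adjusted p = 0.00205) in hIAPP. Kif20a, a kinesin of the central spindle, had 3.48, 4.82 and 3.62 CPM in WT, 3.38, 3.84 and 4.53 in hCAST, 4.42, 3.73 and 3.74 in hIAPP, 4.62, 4.18 and 4.16 in hIAPP_hCAST, and 3.01, 2.74 and 2.46 in rIAPP. Its rIAPP libraries also lay below all others, by 0.53 ± 0.154 (adjusted p = 0.029) in hIAPP, 0.66 ± 0.153 (adjusted p = 0.00604) in hIAPP_hCAST and 0.52 ± 0.154 (adjusted p = 0.0228) in hCAST. In hCAST the Kif20a call was kept in 6 of 11 settings and lost without rIAPP 2, rIAPP 3, hCAST 2 or hCAST 3. Leaving out WT 2, WT 3 and rIAPP 2 together also lost it. Tpx2, which assembles the spindle with Aurora A, had 2, 2.63 and 2.62 CPM in WT, 2.42, 2.95 and 3.77 in hCAST, 3.27, 3.12 and 3.79 in hIAPP, 3.35, 2.17 and 1.74 in hIAPP_hCAST, and 0.852, 1.41 and 1.58 in rIAPP. Its rIAPP libraries lay below all others, by 1.44 ± 0.274 (adjusted p = 0.00159) in hIAPP.

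Prc1, the bundler of central spindle microtubules, had 1.78, 7 and 1.7 CPM in WT, 2.76, 2.82 and 5.01 in hCAST, 3.65, 3.47 and 3.53 in hIAPP, 3.43, 2.21 and 2.03 in hIAPP_hCAST, and 1.19, 1.18 and 1.29 in rIAPP. WT 2, at 16 counts, was the highest library by a wide margin, and rIAPP was lowest, with differences of 1.53 ± 0.35 (adjusted p = 0.00784) in hIAPP, 1.05 ± 0.352 (adjusted p = 0.0503) in hIAPP_hCAST and 1.52 ± 0.35 (adjusted p = 0.00528) in hCAST. Nusap1, a spindle-associated protein, had 1.16, 2.19 and 1.16 CPM in WT, 1.24, 2.1 and 2.8 in hCAST, 1.81, 1.25 and 1.81 in hIAPP, 2.82, 1.3 and 1.59 in hIAPP_hCAST, and 0.739, 0.962 and 1 in rIAPP. The rIAPP libraries lay below all others, and Nusap1 passed in hIAPP_hCAST, at 1.1 ± 0.341 (adjusted p = 0.0336), and in hCAST, at 1.21 ± 0.341 (adjusted p = 0.0172), but not in hIAPP, at 0.87 ± 0.344 (adjusted p = 0.117). In hIAPP_hCAST the Nusap1 call was kept in 5 of 11 settings and lost without hIAPP_hCAST 1 or any single rIAPP library. That call was also lost with only the groups compared, and without WT 2, WT 3 and rIAPP 2 together. Counted over the 38 genes, 27 had every hIAPP library above every rIAPP library, beside 19.8% of all tested genes. The same count was 21 for hIAPP_hCAST, beside 18.3%, and 23 for hCAST, beside 23.2%.

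**Figure D3:**
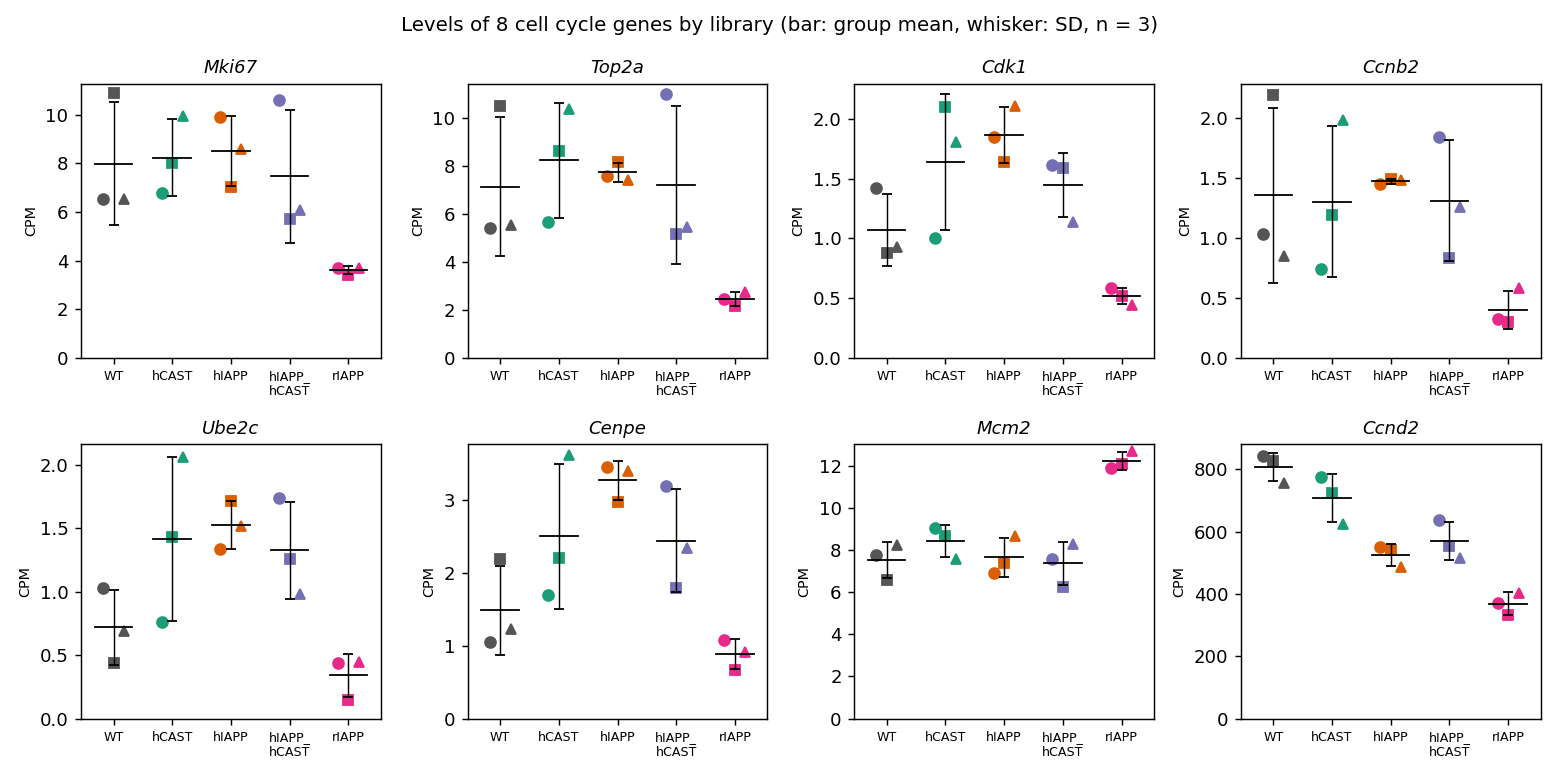
Level in CPM (linear axis from 0) of 8 of the genes in every library; circles, squares and triangles are libraries 1, 2 and 3, bars are group means and whiskers SD (n = 3). The rIAPP libraries are the lowest for Mki67, Top2a, Cdk1, Ccnb2 and Ccnd2 and the highest for Mcm2, at 11.9 to 12.7 CPM.

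Promoter sequences are shown because 20 of the 23 mitotic genes were called in 1 direction, and the letters known from such promoters can be read in them. RefSeq promoter windows on build GRCm38.p6, from 250 bases before the annotated start to 50 after it, were matched by symbol for 29 of the 38 genes. Both strands were searched for the CHR letters TTTGAA or TTTAAA, for CCAAT, the letters bound by NF-Y (called the NF-Y box here), and for the E2F letters TTCCCGC or TTGGCGC. The letters of these motifs were counted wherever they occurred, overlaps included. A match describes letters and is not a binding site, and a window without a match says only that the letters are not in it. Among the 18 matched mitotic genes, 16 held CHR letters, 16 held CCAAT and 15 held both. Among the 11 matched G1 and replication genes, 4 held CHR letters, 7 held CCAAT and 3 held both. Of all 32851 windows, 27.6% held CHR letters, 37.4% CCAAT, 10.7% both and 6.8% the E2F letters, which 3 of the mitotic and 4 of the other matched genes held. Within the 120 bases before the start, 2.48% of all windows held both CHR letters and CCAAT. Of the matched genes called higher in hIAPP than in rIAPP, 8 of 17 held both there (Cdk1, Ccnb1, Plk1, Ube2c, Cdc20, Top2a, Kif11 and, at 1 of its 2 annotated starts, Prc1), and of those that did not pass, 1 of 11 (Cenpa). Of those 17, all but E2f1 are mitotic genes, and of those 11, all but Cenpa and Nusap1 are G1 or replication genes. The split therefore largely repeats the one by role. Whether the letters have a part in the differences was not tested. The stretches below are the 120 bases before the start of 6 of the 8 genes, then of the replication genes Mcm2 and Pcna for contrast. They read 5′ to 3′ along the gene, with CHR letters and CCAAT of either strand in capitals, so that ATTGG is CCAAT and TTCAAA is TTTGAA on the other strand.
Cdk1: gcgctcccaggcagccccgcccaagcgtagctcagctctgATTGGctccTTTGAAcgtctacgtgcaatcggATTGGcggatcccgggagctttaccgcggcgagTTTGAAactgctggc
Ccnb1: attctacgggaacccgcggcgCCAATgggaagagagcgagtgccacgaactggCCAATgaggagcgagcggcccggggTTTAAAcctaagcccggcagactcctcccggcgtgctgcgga
Ube2c: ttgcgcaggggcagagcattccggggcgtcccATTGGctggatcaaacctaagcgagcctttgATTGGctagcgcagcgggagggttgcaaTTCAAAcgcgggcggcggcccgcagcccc
Cdc20: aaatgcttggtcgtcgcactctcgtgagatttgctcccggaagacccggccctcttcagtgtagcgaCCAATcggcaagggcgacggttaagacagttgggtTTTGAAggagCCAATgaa
Top2a: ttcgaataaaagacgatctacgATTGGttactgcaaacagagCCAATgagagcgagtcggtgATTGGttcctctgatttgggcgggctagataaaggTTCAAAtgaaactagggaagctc
Kif11: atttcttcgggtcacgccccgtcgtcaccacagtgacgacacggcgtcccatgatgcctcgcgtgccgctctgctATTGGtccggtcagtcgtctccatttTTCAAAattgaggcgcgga
Mcm2: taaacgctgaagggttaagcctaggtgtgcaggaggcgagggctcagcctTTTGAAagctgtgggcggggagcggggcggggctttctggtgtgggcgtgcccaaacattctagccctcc
Pcna: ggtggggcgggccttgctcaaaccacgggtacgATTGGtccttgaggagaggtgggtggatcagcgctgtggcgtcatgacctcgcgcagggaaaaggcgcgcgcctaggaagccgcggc
In GRCm38.p6 the stretch of Cdk1 is chr10:69352913-69353032 on the minus strand, that of Ccnb1 chr13:100786487-100786606 on the minus strand, that of Ube2c chr2:164769809-164769928 on the plus strand and that of Cdc20 chr4:118437344-118437463 on the minus strand. The stretch of Top2a is chr11:99024190-99024309 on the minus strand, that of Kif11 chr19:37376262-37376381 on the plus strand, that of Mcm2 chr6:88898781-88898900 on the minus strand and that of Pcna chr2:132253181-132253300 on the minus strand. All lie upstream of the transcript, outside any exon of that transcript. In all 6 stretches of mitotic genes shown a CCAAT lies upstream of the CHR letters nearest to the start. Plk1, which is not shown, differs: its CCAAT, at -14 to -10 from the start, lies downstream of CHR letters at -29 to -24. Mcm2, the 1 gene that was lower in hIAPP than in rIAPP, has CHR letters without CCAAT in the stretch, and Pcna has CCAAT without CHR letters. The wider window of Mcm2 does hold a CCAAT, at -175 to -171 from the start. Mki67, Cenpf, Ccnb2, Aurka, Bub1, Bub1b and Cenpe, which were called higher, likewise lack 1 of the 2 motifs in their 120-base stretches. Birc5 and E2f1, also called higher, lack both motifs there.

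**Figure D4:**
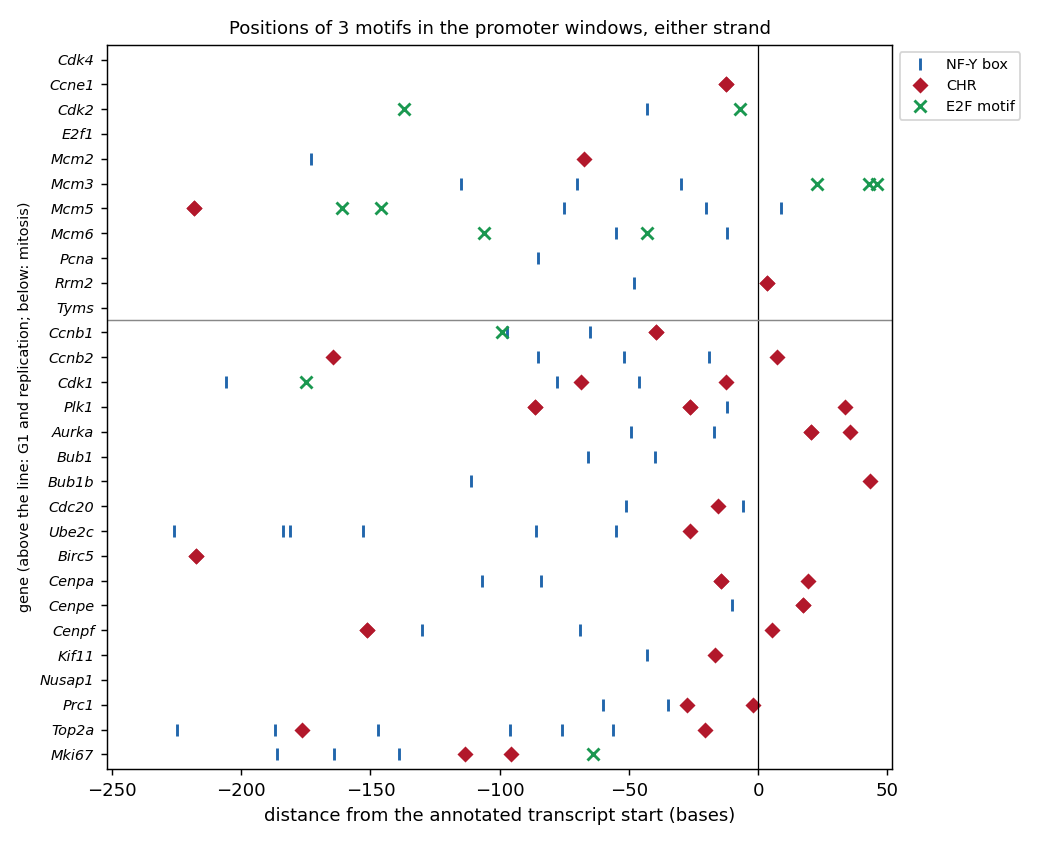
Position of each motif match on either strand, as distance in bases from the annotated transcript start, in the promoter windows of 29 genes; blue ticks are the NF-Y box, red diamonds CHR letters and green crosses E2F letters, and both starts of Prc1 share a row. Of the 18 mitotic genes below the grey line 15 have both blue and red marks, against 3 of the 11 genes above it.

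The replication genes did not follow the mitotic genes. Of the 8, none was called higher and Mcm2 was called lower in hIAPP, hIAPP_hCAST and hCAST against rIAPP, with 4 of the 8 above zero in each. Mcm2, a subunit of the MCM helicase, had 7.78, 6.57 and 8.25 CPM in WT, 9.03, 8.67 and 7.59 in hCAST, 6.91, 7.39 and 8.69 in hIAPP, 7.56, 6.27 and 8.27 in hIAPP_hCAST, and 11.9, 12.1 and 12.7 in rIAPP. All rIAPP libraries lay above all other libraries, so its order was the reverse of that of the mitotic genes. Mcm2 differed from rIAPP by -0.67 ± 0.121 (adjusted p = 0.000973) in hIAPP, -0.73 ± 0.12 (adjusted p = 0.00039) in hIAPP_hCAST and -0.54 ± 0.12 (adjusted p = 0.00371) in hCAST. The 4 other MCM subunits measured did not pass in any of these comparisons, with log2 fold changes from -0.15 (Mcm5) to 0.2 (Mcm3) in hIAPP. Pcna, the sliding clamp of the replication fork, had 17.5, 17.1 and 17.5 CPM in WT, 18.3, 18 and 16.8 in hCAST, 19.3, 17.5 and 19.3 in hIAPP, 18.2, 17 and 18.2 in hIAPP_hCAST, and 17.8, 16.9 and 17 in rIAPP, and it varied little, with 0.12 ± 0.0737 (adjusted p = 0.372) in hIAPP. Tyms, which makes thymidylate, stood at -0.11 ± 0.173 (adjusted p = 0.763) in hIAPP, and Rrm2, the ribonucleotide reductase subunit made in S phase, at 0.75 ± 0.275 (adjusted p = 0.091). Rrm2 had the highest fold change of the 8, and its hIAPP libraries (2.35 to 3.45 CPM) lay above its rIAPP libraries (1.61 to 2.22 CPM).

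Among the G1 genes, Ccnd2 differed most clearly between groups. It had 843, 826 and 756 CPM in WT, 776, 725 and 626 in hCAST, 552, 542 and 486 in hIAPP, 639, 555 and 517 in hIAPP_hCAST, and 372, 332 and 404 in rIAPP. The levels fell in the order WT, hCAST, hIAPP_hCAST, hIAPP and rIAPP by their means of 808 ± 45.8, 709 ± 76.3, 570 ± 62.6, 527 ± 35.6 and 370 ± 35.7 CPM (SD, n = 3). Neighbours in this order overlapped, except that every rIAPP library lay below every library of the other groups. Ccnd2 was lower than in WT by -1.13 ± 0.106 (adjusted p = 1.14e-06) in rIAPP, -0.62 ± 0.105 (adjusted p = 0.00185) in hIAPP and -0.5 ± 0.105 (adjusted p = 0.015) in hIAPP_hCAST. Against rIAPP it was higher by 0.51 ± 0.105 (adjusted p = 0.00294) in hIAPP, 0.63 ± 0.105 (adjusted p = 0.000453) in hIAPP_hCAST and 0.94 ± 0.105 (adjusted p = 6.61e-06) in hCAST. Summed beta-cell markers were ordered WT, hCAST, then hIAPP with hIAPP_hCAST, then rIAPP as well, at 114000 to 124000, 92000 to 102000, 68500 to 83300 and 38700 to 50300 CPM, and their part in the Ccnd2 differences was not tested.

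Ccne1, the cyclin that activates Cdk2 at the end of G1, had 2.37, 1.31 and 2.47 CPM in WT, 2.04, 1.85 and 2.02 in hCAST, 1.21, 1.46 and 1.5 in hIAPP, 1.31, 1.39 and 1.92 in hIAPP_hCAST, and 1.14, 0.962 and 1.27 in rIAPP. The rIAPP libraries lay below those of WT, hCAST and hIAPP_hCAST and overlapped hIAPP. The lowest WT library, WT 2, held only 3 counts, and its 1.31 CPM was close to the 1.27 CPM of rIAPP 3. Ccne1 differed from WT by -0.99 ± 0.236 (adjusted p = 0.00597) in rIAPP and -0.71 ± 0.225 (adjusted p = 0.0493) in hIAPP. The latter call was kept in 3 of 11 alternative settings. E2f1, a transcription factor of the G1 to S transition, had 10.7, 10.1 and 9.18 CPM in WT, 9.23, 9.95 and 12.6 in hCAST, 11.8, 11.7 and 10.9 in hIAPP, 11.8, 10.0 and 9.07 in hIAPP_hCAST, and 9.28, 8.66 and 8.01 in rIAPP. Its hIAPP libraries lay above its rIAPP libraries, 0.4 ± 0.127 (adjusted p = 0.0452), a call kept in 3 of 11 settings. Ccnd1, which opens the G1 list, had 86, 57.8 and 83.8 CPM in WT, 80.8, 60.4 and 47.4 in hCAST, 59.2, 67.4 and 78.6 in hIAPP, 51.4, 43.9 and 57.2 in hIAPP_hCAST, and 53.8, 63.3 and 60.3 in rIAPP. The hIAPP_hCAST libraries lay just below those of WT, and below those of hIAPP, and the other groups overlapped. Ccnd1 passed in none of the comparisons, with -0.62 ± 0.189 (adjusted p = 0.089) in hIAPP_hCAST against WT. Neither did Cdk4, the partner kinase of D cyclins, at 60.0 to 88.3 CPM, Cdk2, the partner of E cyclins, at 0.438 to 2.89, or the E cyclin Ccne2 at 2.93 to 7.

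The comparison of rIAPP with WT asks what the rodent transgene is associated with. Of the 38 genes, 1 was higher and 8 were lower in rIAPP, beside 10.7% and 12.6% of all tested genes, and with 23.3% of them called either way the share was near the background. The median was -0.58. All 23 mitotic genes were below zero, from -1.35 to -0.24, and 6 of them passed: Ccnb2 -1.35 ± 0.471 (adjusted p = 0.0474), Cdk1 -1.21 ± 0.344 (adjusted p = 0.0171), Cenpf -1.12 ± 0.332 (adjusted p = 0.0229), Kif11 -1.06 ± 0.298 (adjusted p = 0.0163), Top2a -1.29 ± 0.345 (adjusted p = 0.0148) and Mki67 -0.97 ± 0.263 (adjusted p = 0.0146). The Ccnb2 call was kept in 5 of 11 settings and lost without WT 1, WT 2, WT 3, rIAPP 1 or rIAPP 2. Mcm2 was higher, by 0.65 ± 0.135 (adjusted p = 0.00211). The number of genes that had every rIAPP library below every WT library was 16, beside 19% of all tested genes. Without WT 2, WT 3 and rIAPP 2, which leaves WT with 1 library, 2 genes were called and both were lower. The number called was 5 without rIAPP 1, and also 5 without WT 1.

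Against WT, hIAPP showed 1 gene higher and 2 lower, beside 6.27% and 5.59% of all tested genes. The higher gene was Cenpe, at 1.45 ± 0.333 (adjusted p = 0.0111), and the lower ones were Ccnd2 and Ccne1. The mitotic genes had a median of 0.57 with 22 of 23 above zero, and for 10 of the 38 genes every hIAPP library lay above every WT library, beside 17.9% of all tested genes. Without WT 1, and likewise without WT 2, WT 3 and rIAPP 2, Ccnd2 alone passed, and 1 gene was called. The mitotic levels of WT are imprecise, above all in WT 2 and WT 3. Reads of the mitotic genes number 1888, 154 and 520 in WT 1, 2 and 3, against 2078 to 3723 in the libraries of hIAPP, hIAPP_hCAST and hCAST.

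The remaining comparisons test the human CAST transgene and the double transgenic mice. In hCAST against WT, 0 of 38 genes were called by edgeR, with an unadjusted p under 0.05 in 2 (Aurkb, Cenpe), beside 0.0194% of all tested genes. DESeq2 also called 0, but gave an adjusted p to 6 of the 38 only, and to none of the mitotic genes. In hIAPP_hCAST against WT, 0 were higher and 1 was lower, Ccnd2, beside 1.69% and 1.79%. That call was lost without hIAPP_hCAST 2 and with only the groups compared. In hIAPP_hCAST against hIAPP, which adds CAST to human IAPP, edgeR called 0, with 3 at an unadjusted p under 0.05 (Ccnd1, Ccne2, Mcm3), and DESeq2 called 0, beside 0.466% of all tested genes. The median was -0.13. In hIAPP_hCAST against hCAST, edgeR called 0, with 1 at an unadjusted p under 0.05 (Ccnd2), and DESeq2 called 0, beside 0.75%. In hIAPP against hCAST, Ccnd2 was lower, at -0.43 ± 0.105 (adjusted p = 0.0198), and no gene was higher, beside 2.15% and 5.04%. That call was lost without hIAPP 2, hIAPP 3, hCAST 1 or hCAST 2.

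The interaction compares what human IAPP adds in hCAST mice with what it adds in WT mice, and it was called for 0 of 38 genes by edgeR, with an unadjusted p under 0.05 in 3, and for 0 by DESeq2, which gave 37 of them an adjusted p, beside 0% of all tested genes. The 3 were Cenpe at -1.48 ± 0.423 (adjusted p = 0.344), Tpx2 at -0.91 ± 0.381 (adjusted p = 0.52) and Prc1 at -1.1 ± 0.495 (adjusted p = 0.548). Within groups the summed mitotic level varied. In hIAPP_hCAST the summed mitotic level of library 1 was 70.5 CPM and those of libraries 2 and 3 were 41.8 and 45.1, and in hCAST the range was 41.6 to 70.9. The SD over libraries was 15.7 CPM in hIAPP_hCAST, 14.6 in hCAST and 15.6 in WT, against 4.85 in hIAPP and 1.27 in rIAPP.

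Lists of further pathway genes, 119 of 123 tested, were read from the same fits and the same libraries. Of 57 other mitosis genes, 22 were higher and 0 lower in hIAPP against rIAPP (median 0.93), 20 and 0 in hIAPP_hCAST (median 0.86), and 25 and 0 in hCAST (median 0.92). In hIAPP they included Nek2, a centrosome kinase, at 1.76 ± 0.26 (adjusted p = 0.000183), Racgap1, a regulator of cytokinesis, at 0.81 ± 0.123 (adjusted p = 0.000235), Hmmr, a spindle protein, at 2.04 ± 0.329 (adjusted p = 0.000403), and Dlgap5, a microtubule-binding protein, at 1.33 ± 0.259 (adjusted p = 0.00193). In rIAPP against WT, 1 of the 57 was higher and 5 were lower (median -0.55), smaller shares than the 10.7% and 12.6% of all tested genes. They include Racgap1 at -0.78 ± 0.134 (adjusted p = 0.000431), Ttk, a checkpoint kinase, at -1.54 ± 0.462 (adjusted p = 0.0227) and Cdc25b, a phosphatase that activates Cdk1, higher at 0.77 ± 0.205 (adjusted p = 0.012). In hIAPP against WT, 4 were higher and 0 lower, a share near the 6.27% of all tested genes, with Nek2 at 1.37 ± 0.291 (adjusted p = 0.00693) and Espl1, which encodes separase, at 1.57 ± 0.427 (adjusted p = 0.0262).

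Of 32 other DNA replication genes, 0 were called by edgeR in hIAPP against rIAPP (median 0.02), with 4 at an unadjusted p under 0.05, and 0 by DESeq2. The smallest p belonged to Orc6, a subunit of the origin recognition complex, at 0.33 ± 0.121 (adjusted p = 0.0836), and Dbf4, the activator of the Cdc7 kinase, at 0.4 ± 0.153 (adjusted p = 0.103). In hCAST against rIAPP, 1 was higher, Orc6, at 0.58 ± 0.12 (adjusted p = 0.00207), and 2 were lower, Fen1, the flap endonuclease, at -0.53 ± 0.143 (adjusted p = 0.0135) and Ung, a uracil glycosylase, at -0.59 ± 0.191 (adjusted p = 0.0341). In hIAPP_hCAST against rIAPP, Orc6 was higher at 0.41 ± 0.12 (adjusted p = 0.0233) and Fen1 lower at -0.43 ± 0.142 (adjusted p = 0.0438). In rIAPP against WT, Orc6 was lower at -0.61 ± 0.131 (adjusted p = 0.00276) and Ung higher at 0.87 ± 0.228 (adjusted p = 0.0106), and in hIAPP against WT, Cdt1, an origin licensing factor, was higher at 1.38 ± 0.366 (adjusted p = 0.0229). Of all tested genes, 11.8% were higher and 10.6% lower in hCAST, and 9.98% and 8.21% in hIAPP_hCAST, against rIAPP. Against WT, 10.7% were higher and 12.6% lower in rIAPP, and 6.27% were higher in hIAPP. Calls among these 32 genes were no more frequent than those shares.

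Of 10 CDK inhibitors and pocket proteins, Cdkn2b, an inhibitor of Cdk4 and Cdk6, was the 1 called in hIAPP against rIAPP, higher at 0.52 ± 0.137 (adjusted p = 0.017). It was also higher in hIAPP_hCAST at 0.48 ± 0.136 (adjusted p = 0.0208) and in hCAST at 0.76 ± 0.136 (adjusted p = 0.000613), and Cdkn1c, which encodes p57, was lower in hIAPP_hCAST at -0.53 ± 0.178 (adjusted p = 0.0488). In rIAPP against WT, Cdkn2b was lower at -0.65 ± 0.152 (adjusted p = 0.00504) and Rbl2, the pocket protein p130, at -0.3 ± 0.096 (adjusted p = 0.0321). Of all tested genes, 12.6% were lower in rIAPP than in WT. Higher than in rIAPP were 7.71% in hIAPP, 9.98% in hIAPP_hCAST and 11.8% in hCAST, shares near the 1 of 10 called higher here. Of 11 other G1 and E2F genes, 0 were called by edgeR in hIAPP against rIAPP, with 2 at an unadjusted p under 0.05, and 0 by DESeq2. Those were Cdk6, the other partner kinase of D cyclins, at -0.68 ± 0.258 (adjusted p = 0.101) and Myc, a transcription factor of growth, at -0.62 ± 0.28 (adjusted p = 0.191). Of the 11, 1 was higher and 2 were lower in hIAPP_hCAST against rIAPP, beside 9.98% and 8.21% of all tested genes. In hCAST against rIAPP 0 were higher and 2 lower, and in rIAPP against WT 3 were higher and 0 lower. Among these, Cdk6 was lower at -1.09 ± 0.261 (adjusted p = 0.00731) in hIAPP_hCAST and at -1.28 ± 0.265 (adjusted p = 0.00212) in hCAST, and higher at 1.14 ± 0.311 (adjusted p = 0.0135) in rIAPP against WT. Myc was lower at -0.89 ± 0.282 (adjusted p = 0.0422) in hIAPP_hCAST and at -1.09 ± 0.285 (adjusted p = 0.013) in hCAST, and higher at 1.38 ± 0.339 (adjusted p = 0.00898) in rIAPP against WT.

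Of 9 regulators of beta-cell proliferation, 2 were higher and 0 lower in hIAPP against rIAPP, the growth hormone receptor Ghr at 0.38 ± 0.114 (adjusted p = 0.0344) and the IGF1 receptor Igf1r at 0.36 ± 0.104 (adjusted p = 0.0294). In hCAST against rIAPP, 3 were higher, Ghr at 0.72 ± 0.115 (adjusted p = 0.000229), Igf1r at 0.59 ± 0.104 (adjusted p = 0.000576) and the prolactin receptor Prlr at 0.47 ± 0.149 (adjusted p = 0.0363). In rIAPP against WT 3 were lower, Ghr at -0.62 ± 0.116 (adjusted p = 0.000947), Igf1r at -0.65 ± 0.108 (adjusted p = 0.000332) and Prlr at -0.86 ± 0.152 (adjusted p = 0.000786). In hIAPP_hCAST against rIAPP, 4 of the 9 were higher and 0 lower, beside 9.98% and 8.21% of all tested genes. The median over the 9 was 0.36, and the smallest adjusted p was 0.000435. Tph2, an enzyme of serotonin synthesis, was 1 of the 4, at 2.12 ± 0.409 (adjusted p = 0.00152). Against WT, Tph2 was the 1 called higher in hIAPP_hCAST, at 2 ± 0.48 (adjusted p = 0.0327).

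Markers of cell types moved along with the groups. Of 8 beta-cell markers, 7 were higher in hIAPP, 7 in hIAPP_hCAST and 8 in hCAST than in rIAPP, and 8 were lower in rIAPP than in WT. Their part in the mitotic differences was not tested. Of 11 macrophage markers, 10 were higher in hIAPP and 10 in hIAPP_hCAST than in rIAPP, but 1 in hCAST. Their summed level was 299 to 420 CPM in hIAPP, 286.9, 210 and 171 in hIAPP_hCAST 1, 2 and 3, 111 to 118 in hCAST, 74.0 to 108 in WT and 65.0 to 84.3 in rIAPP. The library with the highest macrophage sum also had the highest mitotic sum in hIAPP_hCAST (library 1) and rIAPP (library 3). In hIAPP and hCAST the library with the highest macrophage sum, hIAPP 2 and hCAST 1, had the lowest mitotic sum. In WT the library with the lowest macrophage sum, WT 2, had the highest mitotic sum. The part of these markers in the mitotic differences was not tested. Of 8 endothelial markers, 3, 8 and 8 were lower in hIAPP, hIAPP_hCAST and hCAST than in rIAPP, whose sum of 791 to 814 CPM lay above the 459 to 670 CPM of the other libraries. Of 9 stellate and matrix markers, 7 were higher in rIAPP than in WT, and the sum was 877 to 997 CPM in rIAPP, 846 to 1040 in hIAPP, 379 to 589 in hCAST, 285 to 441 in WT and 253 to 587 in hIAPP_hCAST. The part of endothelial and stellate markers was not tested either.

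The share of ribosomal-rich counts also moved with the groups. It ranged from 1.99% to 67.7% over the rIAPP libraries, and from 9.4% to 94.3% over those of WT, against 0.351% to 7.63% in hIAPP and 0.286% to 0.491% in hIAPP_hCAST and hCAST. All 3 of these entries were lower than in rIAPP in hIAPP_hCAST (log2 fold changes from -11.24 to -7.45) and in hCAST (-10.94 to -7.5), whereas in hIAPP edgeR called 0 (median -4.45, smallest adjusted p = 0.201, 1 at an unadjusted p under 0.05) and DESeq2 called 3. With the 3 mostly ribosomal libraries left out, 18 of the 38 genes were called in hIAPP, 15 in hIAPP_hCAST and 19 in hCAST against rIAPP. The part of library quality in the mitotic differences was not otherwise tested.

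Of 10 acinar markers, 0 passed with edgeR in hIAPP, hIAPP_hCAST or hCAST against rIAPP, with 0 at an unadjusted p under 0.05, and 0 with DESeq2. Their summed level was 60400 to 84900 CPM in rIAPP, 38200 to 84100 in hIAPP, 5770 to 85600 in hIAPP_hCAST, 27500 to 58100 in hCAST and 10100 to 45500 in WT, and their part in the mitotic differences was not tested. Alpha-cell markers summed to 17400 to 21800 CPM in rIAPP and 14900 to 18800 elsewhere, delta and PP markers to 3200 to 4040 in rIAPP and 3010 to 5230 elsewhere, and duct markers to 356 to 395 in rIAPP and 316 to 390 elsewhere. Single markers were called within these lists. In rIAPP against WT, 2 of 6 alpha-cell markers were higher and 1 lower, and 1 of 8 duct markers was higher and 1 lower. In hIAPP against rIAPP, 1 alpha-cell marker was higher and 1 lower, and 1 duct marker was higher. Their part in the mitotic differences was not tested. Schwann cell markers summed to 22.7 to 26.5 CPM in rIAPP and 16.6 to 34.6 elsewhere. Of 11 lymphocyte markers 3 passed the filter on low counts, and the list summed to 12.9 to 16.1 CPM in rIAPP, 20.8 to 28 in hIAPP and 30.4 to 35.5 in hIAPP_hCAST, 13.0 to 19.0 in hCAST and 14.7 to 17.5 in WT. The numbers in the library titles fall into 3 separate ranges, 1 for WT with hCAST, 1 for hIAPP with hIAPP_hCAST and 1 for rIAPP alone. Whatever these ranges mark cannot be told apart from the IAPP transgenes, nor can line, litter or colony.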

How the data were processed

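Per the labels, RNA came from the RNeasy Mini Kit, was checked on a Bioanalyzer and went into TruSeq libraries, with Ribo-Zero and NuGEN Ovation named. The authors deposited raw read counts per gene symbol and FPKM. The submitters' processing notes name STAR, HTSeq and GRCm38/mm10; versions, annotation, strand setting and treatment of multi-mapped reads are not given in the sources used here, so counts of overlapping or antisense genes are uncertain. The deposited FPKM values were used only to recover gene lengths. Counts were analysed in R 4.3.3 with edgeR 4.0.16 (TMM, default low-count filter by group, robust quasi-likelihood test, 1 coefficient per group over all 15 libraries) in 10 pairwise comparisons and an interaction, and the procedure was tested on simulated data. SE is the fold change divided by the root of F. DESeq2 1.42.0 was an alternative. All 38 genes were eligible for naming, with values in every library for those called in any comparison or opening a role group; of other lists, up to 4 called genes with the smallest p were named, or 2 where none passed. The genes and lists were chosen with earlier results of these data known. Replicate numbers follow accession order. Between replicates, chi-square over genes per degree of freedom was 11 to 3220, so none agreed within sampling noise. No columns were left unused.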

Additional observations from a re-analysis of the deposited data

How the results depend on the processing

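Of 857 checks of called genes under other settings, 718 kept the call, 139 lost it and 0 reversed. Without WT 2, WT 3 and rIAPP 2, whose counts are mostly ribosomal, the number of called genes was 18 in hIAPP, 15 in hIAPP_hCAST and 19 in hCAST against rIAPP, but 1 in hIAPP, 2 in rIAPP and 0 in hIAPP_hCAST against WT. WT then has 1 library, assumed to vary like the other groups. In hIAPP_hCAST against WT, DESeq2 called 2 and a fit of the groups compared alone called 0. Leaving out 1 library at a time gave 14 to 20 called genes in hIAPP, 11 to 20 in hIAPP_hCAST and 15 to 25 in hCAST against rIAPP. Against WT it gave 5 to 9 in rIAPP, 1 to 4 in hIAPP, 0 to 1 in hIAPP_hCAST and 0 to 0 in hCAST, and 0 to 1 in hIAPP against hCAST. The cause of these changes was not tested. Bub1, Bub1b, Ccnd2, Cdk1, Cenpe, Cenpf, Kif11, Mcm2, Mki67, Prc1, Top2a, Tpx2 and Ube2c passed in hIAPP against rIAPP under all 11 settings tried there. In rIAPP against WT Ccnd2 alone did so. No paired analysis was possible because groups have no title number in common and replicate numbers follow accession order. Low reads limit the mitotic genes most, above all in WT 2, where all 23 had 154 reads together.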
